A study of Mus musculus with 2 samples.

Results

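Exonic peaks away from start sites were ATAC-seq peaks whose midpoint lay in a coding exon or a 3' untranslated exon of the longest transcript of a protein-coding gene, more than 1 kb from every annotated start site on mm9. They numbered 7308 of the 161727 deposited peaks. The control list held 4546 of them, 3322 in coding exons and 1224 in 3' untranslated exons. The Taf4-inactivated list held 2762, with 1914 in coding exons and 848 in 3' untranslated exons. A peak was partnered when at least 1 bp of it overlapped any peak of the other list.

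Chromatin accessibility was measured in enteroids, epithelial cultures grown from ileal crypts of 4-month-old C57Bl6/129sv mice. The control library, labelled WT, came from Taf4 lox/lox enteroids and the inactivated library, labelled KO, from Taf4 lox/lox::VilCreERT2 enteroids, in which the Villin promoter drives a tamoxifen-dependent Cre recombinase in intestinal epithelium. Both received 1 µM 4-OHT for 3 days, so the controls carried the floxed alleles and the drug but no Cre. The number of mice behind each library is not given in the sources used here. The comparison asks how open chromatin differed soon after loss of Taf4, which encodes a part of TFIID, the factor that binds core promoters, and with 1 library per genotype every difference describes these 2 libraries, carries no p-value and cannot be told apart from a difference between cultures.

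Most open chromatin of a genome lies at promoters and at enhancers in introns and between genes. Coding sequence is read by ribosomes as codons, is richer in G and C than intron sequence, and can also carry binding sites for transcription factors or act as an enhancer for the same or another gene. The 3' untranslated exon follows the stop codon and mainly controls the stability and translation of the mRNA, and the DNA just beyond it is where transcription ends. AP-1, a dimer of Fos and Jun proteins, and CTCF, a zinc finger protein that anchors chromatin loops, both bind DNA at short recognition sequences.

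The sequences below carry the recognition letters of these factors in exonic peaks called in both libraries. They were read from the NCBIM37 (mm9) genome and are shown because a paired peak around each site stood in both lists. The AP-1 letters searched were TGACTCA and TGAGTCA, on both strands within 300 bp about the midpoint, and the letters of none of the motifs searched contain those of another. The 12-letter CTCF pattern is given by name. Capitals mark the match, and the examples are those with the highest control fold among 17 coding-exon and 13 3' untranslated pairs for AP-1, and among 6 and 7 pairs for CTCF.
AP-1, Ptprb exon 15, coding, chr10:115784057-115784085, plus strand: cctgtatgtggTGACTCAcagtggggacc
AP-1, Lrriq4 exon 4, coding, chr3:30549532-30549560, plus strand: accggagtctcTGAGTCAgtgcagcaagc
AP-1, Mtus1 exon 14, 3' untranslated, chr8:42077258-42077286, plus strand: gaagtctaggaTGACTCAcctctagtatc
AP-1, Atrn exon 29, 3' untranslated, chr2:130855268-130855296, plus strand: tggcaaggaaaTGAGTCAcctccttgggg
CTCF, Coro2a exon 6, coding, chr4:46558488-46558517, minus strand: ctggaacaaCCGGCAGATGGCcctgtggga
CTCF, Lrp1 exon 24, coding, chr10:127013539-127013568, plus strand: cacgtcggtCCAGTAGAGGGCactctggct
CTCF, Ehd2 exon 6, 3' untranslated, chr7:16533836-16533865, plus strand: actacctttCCACCAGAGGGCgcccagggc
CTCF, Zcchc8 exon 14, 3' untranslated, chr5:124149400-124149429, minus strand: gctcccaggCCAGCAGAGGGCgcaaaaggg

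The fold of a peak is the authors' enrichment over the background of its own library, and it is not on 1 scale between libraries. It is therefore also given as a percentile of fold among all peaks of the same list. Around the AP-1 site in Ptprb, a receptor tyrosine phosphatase, the peak had a fold of 2.93 in control, at percentile 95.4, and of 2.68 after inactivation, at percentile 64.5. Around the site in Atrn, which encodes attractin, the fold was 2.46 in control, at percentile 87.0, and 3.81 after inactivation, at percentile 91.6. The CTCF site in Coro2a, a coronin, lay under peaks of fold 2.46 at percentile 87.0 and 3.56 at percentile 88.2. The CTCF site in Lrp1, a lipoprotein receptor, lay under peaks of fold 2.0 at percentile 43.5 and 2.51 at percentile 54.4.

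The control list held 90445 peaks over 66.0 Mb and the inactivated list 71282 peaks over 47.7 Mb. Read numbers were not used here. The background level solved from the fold and p of the narrowest peaks was 12.1 extended reads in control and 7.35 after inactivation, a ratio of 1.65. Under a stricter limit of −log10 q, 5 or more, 10757 control and 20474 inactivated peaks remained. At the gene itself, Taf4a had no exonic peak in either list, and the peak at its start site had a fold of 2.22 at percentile 74.7 in control and of 2.57 at percentile 58.7 after inactivation. Peaks at start sites do not show expression, and the deleted exons were not tested. Start site peaks were present at 13 of 13 crypt stem genes in both lists, and at 15 of 20 enterocyte genes in control and 17 after inactivation. They were present at 14 of 16 secretory and tuft genes in control and 12 after inactivation. Of 20 junction and keratin genes 18 had one in control and 20 after inactivation. All 15 intestinal transcription factor genes and all 20 Polycomb and TFIID genes had one in both lists. The share of all coding genes with a start site peak was not computed, so counts of listed genes have no background. For 19 genes that define immune, endothelial, fibroblast, muscle or neural cells, 12 had a start site peak in control and 9 after inactivation, and the part of such cells in the results was not tested.

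Coding exons held the exonic peaks at the highest density. Control peaks had a density of 130 per Mb in coding sequence, 53.3 per Mb in 3' untranslated exons and 34.2 per Mb in introns, counting only bases more than 1 kb from start sites. After inactivation these densities were 75.1, 36.9 and 26.2 per Mb. Coding exons thus exceeded introns 3.80-fold in control and 2.87-fold after inactivation, and 3' untranslated exons exceeded introns 1.56-fold and 1.41-fold. These ratios count all peaks. At a −log10 q of 5 or more, 69 coding-exon, 35 3' untranslated and 1226 intronic peaks remained in control. After inactivation 186, 123 and 4076 remained. Both excesses over introns were thus smaller among the peaks of high q in each list. The bases counted were not limited to those where reads can be placed uniquely, and the part of this in the ratios was not tested. Coding-exon peaks made up 4.69% of all control peaks over 1 kb from start sites and 3.56% of those after inactivation. The corresponding shares of 3' untranslated peaks were 1.73% and 1.58%.

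The density of coding-exon peaks rose with exon length up to 1000 bp and was lower beyond. Exons with a coding part of up to 150 bp held 78.0 control peaks and 48.1 inactivated peaks per Mb. The density was highest for parts of over 300 to 1000 bp, with 243 control and 133 inactivated peaks per Mb. For over 1000 to 3000 bp it was 199 and 118 peaks per Mb. Above 3000 bp it was 95.9 and 65.7 peaks per Mb, over 89 and 61 peaks. Peaks are placed by their midpoint, and a peak is often wider than a short exon, so that 24.9% of coding-exon peaks in control and 26.9% after inactivation lay wholly inside the exon. The median coding-exon peak had 64.8% of its bases in coding sequence in control and 65.7% after inactivation.

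**Figure D1:**
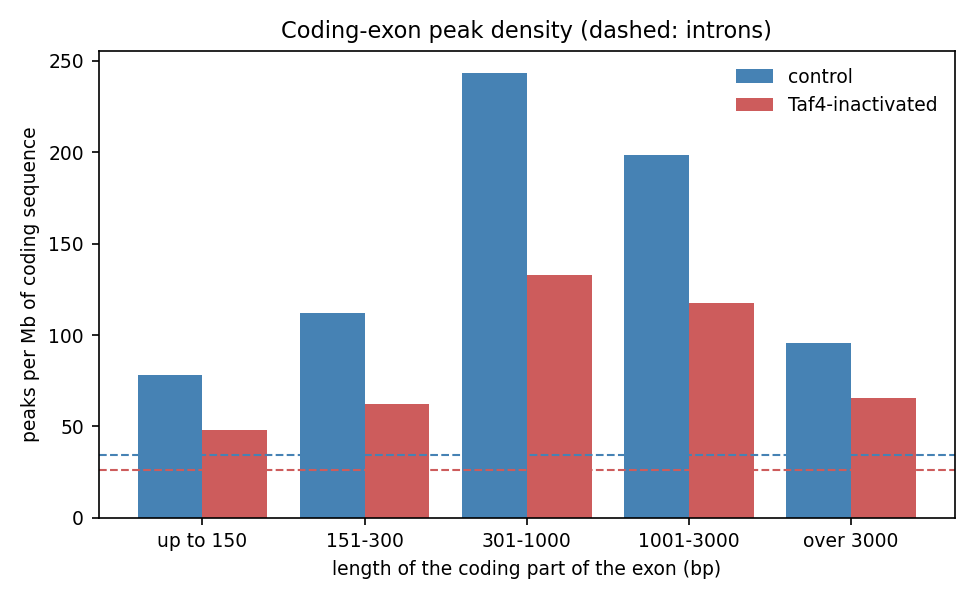
Coding-exon peaks per Mb of coding sequence more than 1 kb from start sites, by length of the coding part of the exon in bp, for the control and Taf4-inactivated lists, with dashed lines at the density of intronic peaks. In both lists the bars peak at over 300 to 1000 bp, at 243 and 133 peaks per Mb, and every bar stands above the intron line of its list.

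The control list held more exonic peaks than the inactivated list, and the excess was larger in coding exons than elsewhere. The ratio of control to inactivated peaks was 1.74 in coding exons, 1.44 in 3' untranslated exons, 1.31 in introns and 1.27 over all peaks. With peaks kept at a −log10 q of 2 or more, where the lists held 44495 and 45640 peaks, the ratio was 1.55 in coding exons, 1.09 in 3' untranslated exons and 0.902 in introns. With peaks kept at 5 or more the ratio was below 1 in every class. It was 0.371 in coding exons, 0.285 in 3' untranslated exons, 0.301 in introns and 0.352 outside coding genes. The lists then held 69 control against 186 inactivated coding-exon peaks and 35 against 123 3' untranslated peaks. The share of coding-exon peaks among those over 1 kb from start sites was then 2.01% in control and 1.80% after inactivation. For 3' untranslated peaks it was 1.02% and 1.19%. With the 71282 peaks of highest q kept in each list, a setting chosen after the data had been seen, coding exons held 2549 and 1914 peaks, and 3' untranslated exons 873 and 848.

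The partnered share was lower in control, the list with more exonic peaks. Of control coding-exon peaks 37.9% (36.2 to 39.6, exact 95% interval) were partnered, against 65.3% (63.1 to 67.4) of those after inactivation. Of 3' untranslated peaks 37.8% (35.1 to 40.6) were partnered in control and 58.4% (55.0 to 61.7) after inactivation. All intervals cover counting error only, and neighbouring peaks are not independent. The shares of the 2 lists rest on the same overlaps, so the interval of their difference treats as independent what is not. The background shares were 47.3% of all control peaks and 60.2% of all inactivated peaks, and 38.5% and 51.2% of those over 1 kb from start sites. Against the peaks over 1 kb from start sites, the exonic shares were near the background in control and above it after inactivation. Against all peaks, which include those at start sites, both control shares were lower, and after inactivation the interval of the 3' untranslated share included the background. The share after inactivation minus that in control was 27.4 points in coding exons and 20.5 points in 3' untranslated exons. The latter difference was 4.74 points with peaks kept at a −log10 q of 2 or more, with an interval of 6.70 points on either side that includes 0, and 5.04 points, with 4.78 on either side, with the 71282 peaks of highest q in each list. With peaks kept at 5 or more of −log10 q in both lists the difference turned, as the numbers of peaks did, to −30.7 and −65.8 points.

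In numbers of peaks the partnered sets were close in size. Control had 1259 partnered coding-exon peaks and the inactivated list 1250. The unpartnered sets held 2063 and 664 coding-exon peaks. For 3' untranslated exons 463 and 495 peaks were partnered, and 761 and 353 were not. The lower partnered share in control thus went with a larger set of peaks called in control alone. With partnered sets so close in size, the difference in share largely follows from the numbers of peaks and is not a separate result.

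**Figure D2:**
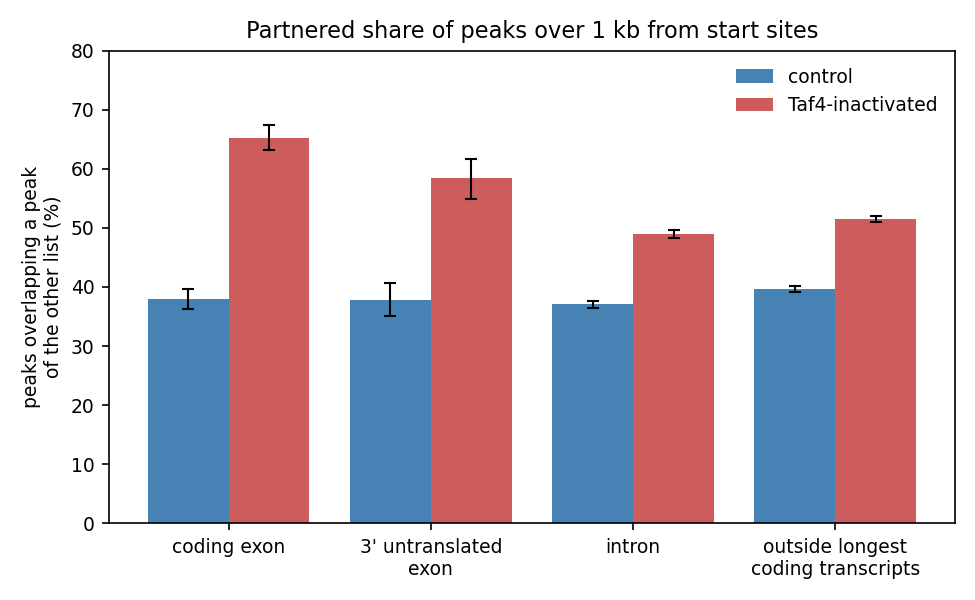
Percentage of peaks over 1 kb from start sites that overlap a peak of the other list by at least 1 bp, by place of the peak midpoint, with exact 95% intervals for counting error. The control bars lie between 37.1% and 39.6%, whereas the inactivated bars are highest in coding exons at 65.3% and lowest in introns at 49.0%.

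Exonic peaks of the inactivated list were partnered more often than intronic ones. The share was 63.2% for all exonic peaks and 49.0% for introns, a difference of 14.2 points with a combined interval of 1.94 points on either side. In control the corresponding difference was 0.803 points with an interval of 1.53 points on either side, which includes 0. Partnered sets were close in size between the lists, with 1722 and 1745 exonic and 10173 and 10271 intronic peaks. With control shares this close, the excess after inactivation largely follows from the larger ratio of control to inactivated peaks in exons. It is not a separate result. The coding-exon share exceeded the 3' untranslated share by 6.94 points after inactivation, with an interval of 4.00 points on either side. This difference also depends on the numbers of peaks. The difference was 3.37 points, with 6.58 on either side, among peaks of 300 to 600 bp, and 3.04 points, with 10.1 on either side, at a −log10 q of 5 or more, and both intervals include 0. In control it was 0.0721 points, with 3.22 on either side, and −6.07 points, with 5.23 on either side, at a −log10 q of 2 or more. When 50% of both peaks had to overlap, the exonic excess after inactivation was 4.07 points, and in control the exonic minus intronic difference was −1.85 points. With peaks kept at a −log10 q of 2 or more it was 6.44 points after inactivation and −11.3 points in control. At 5 or more it was −0.601 points after inactivation, with 5.13 points on either side, so that the excess was no longer seen. When the 71282 peaks of highest q were kept, 56.2% of coding-exon, 48.0% of 3' untranslated and 42.1% of intronic peaks of the inactivated list were partnered. The number of control peaks that could serve as a partner was also highest per Mb in coding sequence, and its part in these shares was not tested.

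After inactivation the coding-exon share was above the intronic one in each class of fold, and the intervals were apart up to percentile 75. These shares rest on the same overlaps as those above and were not tested apart from the numbers of peaks. In the lowest 10% of the list by fold, 59.6% of coding-exon peaks and 41.8% of intronic peaks were partnered. Between percentiles 25 and 50 the shares were 65.2% and 42.2%, between 75 and 90 they were 75.8% (65.9 to 84.0) and 66.9% (65.0 to 68.7), and in the top 10% they were 93.1% (77.2 to 99.2) over 29 coding-exon peaks and 84.8%. The 3' untranslated peaks were near the coding-exon ones in the lowest 10%, with 61.7%, and near the intronic ones between percentiles 50 and 75, with 54.0% against 51.1%. In control the coding-exon and intronic shares were 29.4% and 29.6% in the lowest 10%. Between percentiles 10 and 25 they were 33.8% (30.3 to 37.5) and 28.0%, and between 25 and 50 they were 35.7% (32.3 to 39.1) and 28.5%, so that coding exons were higher there too. In the top 10% the coding-exon share was lower, with 83.9% (71.7 to 92.4) against 94.5%.

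**Figure D3:**
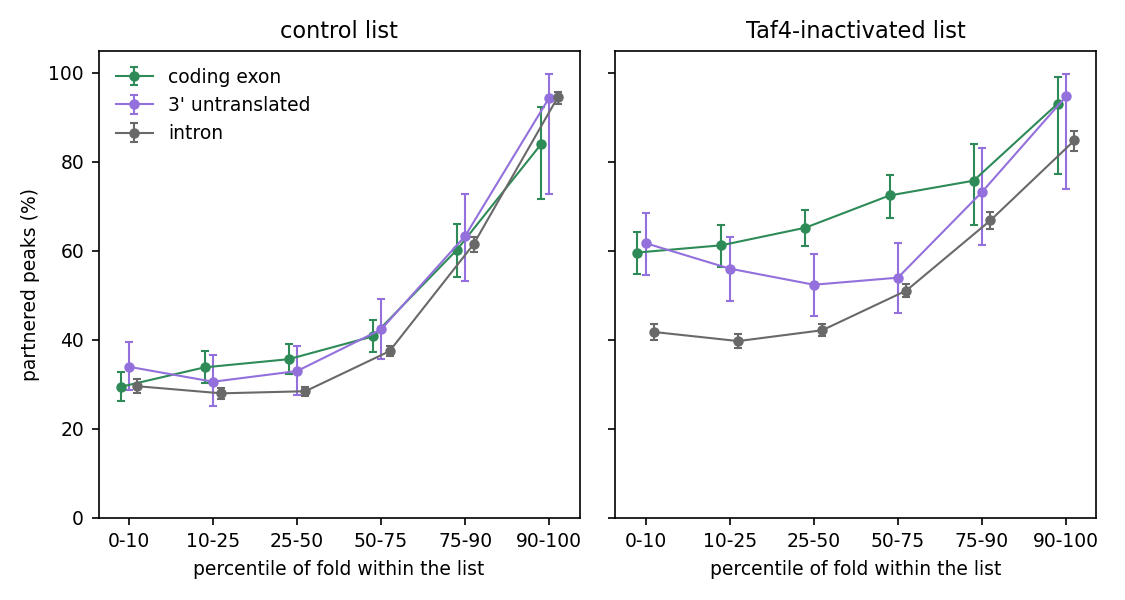
Percentage of partnered peaks by percentile of fold within the list, for coding-exon, 3' untranslated and intronic peaks, with exact 95% intervals, in the control list and in the Taf4-inactivated list. After inactivation the coding-exon points lie above the intronic points in all 6 bins, from 59.6% against 41.8% in the lowest bin, and the intervals overlap above percentile 75. In control coding-exon points lie above intronic ones at percentiles 25 to 50 (35.7% against 28.5%) and below them in the top bin (83.9% against 94.5%).

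Partnered shares varied with exon length. After inactivation 56.4% of peaks in coding parts of up to 150 bp were partnered, against 82.6% (78.3 to 86.3) of those in parts of over 1000 to 3000 bp. In control the shares were 32.9% and 49.0%. In 3' untranslated exons the order was the other way in both lists. After inactivation 68.9% were partnered in exons of up to 1000 bp and 48.9% in those over 3000 bp. In control these shares were 41.4% (35.4 to 47.7) and 35.2% (30.1 to 40.5), with intervals that overlap. The last exon held 31.0% of coding-exon peaks in control and 33.7% after inactivation, and 38.0% and 39.0% of the partnered ones.

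Widths were larger in control. The median coding-exon peak was 499 bp wide in control and 448 bp after inactivation, and the median 3' untranslated peak 597.5 bp and 482.5 bp. Introns had medians of 509 and 437 bp. The median width in coding exons was 728 bp for partnered and 400 bp for unpartnered control peaks, and 537.5 and 343 bp after inactivation. Among peaks of 300 to 600 bp, 65.8% of coding-exon and 51.3% of intronic peaks were partnered after inactivation, and 31.3% and 36.0% in control. Partnered coding-exon peaks were thus the wider ones in both lists, and the part of width in the sharing was not tested.

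**Figure D4:**
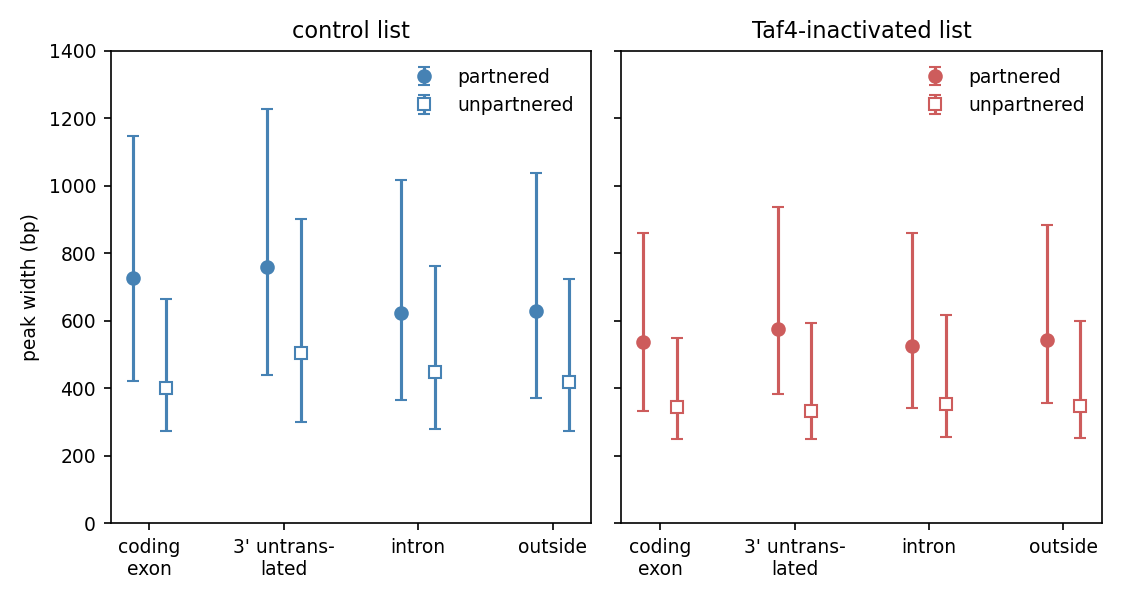
Median peak width in bp (points) with the lower and upper quartiles (bars) of partnered and unpartnered peaks, by place of the peak midpoint, in each list. Partnered peaks are wider than unpartnered ones in every class, and partnered coding-exon peaks have medians of 728 bp in control and 537.5 bp after inactivation.

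Peaks that overlapped each other best were compared directly. In 800 pairs both peaks were in coding exons, and in 356 pairs both were in 3' untranslated exons. The control peak was the wider one in 65.9% (62.5 to 69.2) of the coding-exon pairs, in 55.9% (50.6 to 61.1) of the 3' untranslated pairs and in 54.9% of 9633 intronic pairs. The median ratio of control to inactivated width was 1.26 in coding exons, 1.11 in 3' untranslated exons and 1.06 in introns. Of the 1245 control coding-exon peaks with such a partner, 64.3% met a coding-exon peak, 28.4% an intronic peak and 5.06% a 3' untranslated peak.

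The rank of paired coding-exon peaks within their list was more often lower after inactivation. A percentile depends on which other peaks its list holds, and the lists held 90445 and 71282 peaks. A lower rank therefore does not show lower accessibility. Of the 800 pairs, 66.1% (62.7 to 69.4) had a lower percentile of fold in the inactivated list, with a median difference of −10.4 percentile points. For 3' untranslated pairs the share was 51.1% (45.8 to 56.4) and the median difference −0.487 points. Introns had 53.8% and −1.50 points, and pairs outside coding genes 58.7% and −3.72 points. Pairs at start sites had 64.8%, within the interval of the coding-exon pairs, and −3.03 points. The median percentile of the coding-exon pairs was 46.2 in control and 32.9 after inactivation.

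**Figure D5:**
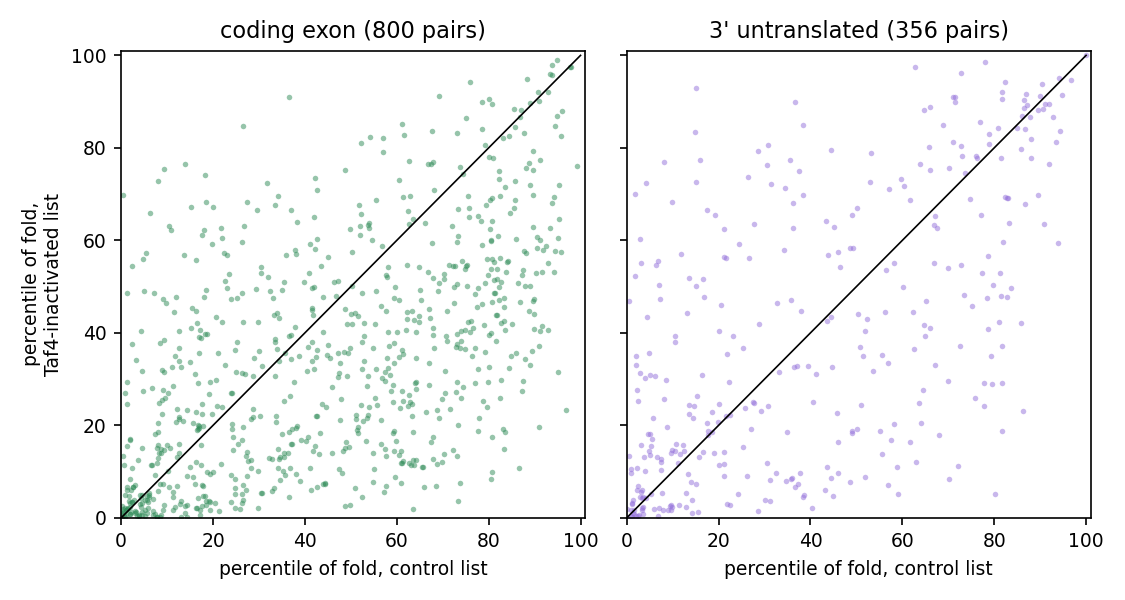
Percentile of fold in the control list (horizontal) against that in the Taf4-inactivated list (vertical) for each pair of mutually best overlapping peaks, with the line of equal rank. More of the 800 coding-exon points lie under the line (66.1%), whereas the 356 3' untranslated points lie on both sides of it (51.1% under it).

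Exonic peaks had lower folds for their list than intronic peaks. The median percentile of fold was 32.4 in coding exons, 27.0 in 3' untranslated exons and 40.8 in introns in control, and 28.9, 29.3 and 41.8 after inactivation. The top 10% of the control list by fold held 56 coding-exon and 18 3' untranslated peaks, which were 1.69% and 1.47% of their class, against 3.85% of intronic peaks. After inactivation it held 29 and 19 peaks, 1.52% and 2.24%, against 5.04%. In control the median −log10 q was 1.85 in coding exons, 1.75 in 3' untranslated exons and 1.79 in introns, and after inactivation 1.92, 1.96 and 2.23, so that by q the control coding-exon peaks were not below the intronic ones.

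The strongest exonic peak of both lists was in the last exon of Lars2, which encodes the mitochondrial leucyl-tRNA synthetase. It lay at chr9:123370852-123371377 with a fold of 6.05 and a −log10 q of 50.1 in control, and at chr9:123370846-123371379 with a fold of 7.81 and a −log10 q of 66.2 after inactivation. They lay 16442 and 16440 bp from a start site. No second copy of this stretch was found in the NCBIM37 assembly at 90% identity over 50% of its length. Copies in sequence that the assembly lacks could not be found by this search, so it does not show that the stretch is unique. The next 3' untranslated peak in control, in Lrrc28, had a fold of 3.19 and a partner of fold 3.83. In Mdp1 and Pla2g10, the latter a secreted phospholipase, control folds were 3.07 and 3.03 and those of the partners 4.13 and 4.05.

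The highest partnered coding-exon peak in control was in the last exon of Tmcc1, at chr6:115972105-115972441, with a fold of 3.56 at percentile 99.2 and a partner of fold 3.0 at percentile 76.1. Those in Prdm2, a zinc finger protein of the PRDM family, and in Klhl31 had folds of 3.26 and 3.22 in control, at percentiles 97.9 and 97.7, and 4.56 and 4.55 after inactivation, at percentiles 97.5 and 97.4. Exon 14 of Hnrnpm had 3.10 at percentile 96.9 and a partner of 2.20 at percentile 23.3. Exon 2 of Metap2, a methionine aminopeptidase, had 2.98 at percentile 95.9 and 3.55 at percentile 88.0. Of these 5 peaks, Prdm2 and Klhl31 were in the top 10% of both lists. In the inactivated list the highest was in exon 21 of Usp37, a deubiquitinase, at chr1:74499130-74499657, with a fold of 4.99 against 2.87 in control. Itgb6, an integrin subunit of epithelia, followed with 4.84 at percentile 98.5 and a control fold of 2.73 at percentile 92.9. Cyp4f39, a cytochrome P450, had 4.67 and 2.79, and Rai14 had 4.65 and 2.79 with AP-1 letters in its window.

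In each class and list the highest unpartnered peak had a lower fold than the highest partnered one. The highest in control were in coding exons of Setbp1, with a fold of 2.69 at percentile 92.3, and Phactr1, with 2.66 at percentile 91.8. In 3' untranslated exons they were in Mesdc2, with 2.69 at percentile 92.2, and Tmem231, with 2.53 at percentile 89.1. After inactivation the highest was in exon 7 of Fbxo42, an F-box protein, at chr4:140753226-140753645, with a fold of 4.42 at percentile 96.8. Dst, which encodes the cytoskeletal linker dystonin, had 3.73 at percentile 90.6 in exon 54, with CTCF letters in its window. The highest 3' untranslated one was in Ubqln1, a ubiquilin, with 4.26 at percentile 95.8, followed by Sec63, of protein import into the endoplasmic reticulum, with 3.55 at percentile 88.0. With 1 library each, a missing partner is a peak that was not called, not closed chromatin.

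Some pairs held very different ranks in the 2 lists. In coding exons, Apba1 exon 2 stood at percentile 86.6 in control and 10.7 after inactivation, and Hnrnpm exon 14, of an RNA-binding protein, at 96.9 and 23.3. Trim63 exon 2, of a muscle ubiquitin ligase, stood at 9.26 in control and 75.5 after inactivation, and Zfp341 exon 9 at 6.19 and 65.9. In 3' untranslated exons, Lhx5, a LIM homeobox gene, stood at 80.1 and 5.10, and Capns1, the calpain small subunit, at 81.7 and 18.8. Ap3s2, of an adaptor complex, stood at 15.2 and 93.0, and Cx3cl1, which encodes the chemokine fractalkine, at 8.21 and 76.8. These were chosen for their difference, and all folds of the higher-ranked control peaks lay between 2.17 and 3.10.

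Most genes held a single exonic peak. Coding-exon peaks lay in 2783 genes in control and 1725 after inactivation, of which 1003 were shared, 36.0% of the former and 58.1% of the latter. The 3' untranslated peaks lay in 1182 and 834 genes, with 386 shared, 32.7% and 46.3%. A gene was shared when each list held a peak of the class in it, whether or not these peaks overlapped. In each class both shares rest on the same shared genes, so their difference follows from the numbers of genes and is not a separate result. Such shares were not computed for genes with intronic peaks, so those given here have no background. In all, 4614 of 22372 protein-coding genes, 20.6%, held an exonic peak in at least 1 list. Of the genes with coding-exon peaks in control, 2359 held 1 peak, and after inactivation 1558.

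The genes with the most coding-exon peaks over both lists were named by rule. Notch3, which encodes a Notch receptor, had 5 coding-exon peaks in control and 4 after inactivation, spread over 33 exons. The same 3 places were called in both lists, in exons 33, 30 and 24, with control folds of 2.25, 2.35 and 2.22 and inactivated folds of 2.43, 2.46 and 2.52. Its exon 25 peak was called only after inactivation, and this stretch had a copy of 92.0% identity elsewhere. Ryr1, the calcium release channel of skeletal muscle, had 4 and 4 peaks over 106 exons, and none had a fold above 2.38. Gltscr1, of a chromatin remodelling complex, had 4 and 3 peaks, and all 3 inactivated peaks were partnered. Hivep3, a zinc finger gene, had 3 and 4 peaks, including 2 inactivated peaks under 1 control peak of exon 4. Cul9, a cullin, had 5 and 2. The gene with most coding-exon peaks in a single list was Otog, an inner ear glycoprotein, with 6 in control and 1 exonic peak after inactivation, and it was picked after its values were seen.

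Genes with several 3' untranslated peaks were few. In control 42 genes and after inactivation 14 genes held 2. In the last exon of Mettl16, an RNA methyltransferase, of 10767 bp, the same 2 places were called in both lists, with folds of 2.56 and 1.79 in control and 2.81 and 2.45 after inactivation. The last exon of Rab43, a small GTPase, also had both places in both lists, with 2.62 and 2.0 in control and 2.66 and 3.12 after inactivation. In Syt7, a synaptotagmin, none of the 4 peaks was partnered. In Tnxb, an extracellular matrix protein, the peaks lay in exons 23 to 32 of 42, since the annotated coding sequence of the longest transcript ends before them, and each had a copy of 92.6% to 94.3% identity on chromosome 17. Only 16 control and 12 inactivated 3' untranslated peaks lay outside the last exon. Copies at 90% identity over 50% of the length were found for 1.57% of control and 2.09% of inactivated coding-exon peaks, and for 1.63% and 2.59% of 3' untranslated peaks.

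Within the 3' untranslated exon, peaks were more frequent near the stop codon. The exon was divided into 5 equal stretches. The one nearest to the stop codon held 32.0% of the midpoints in control and 31.8% after inactivation, and the one farthest from it 10.6% and 10.8%. In control 41.0% of 3' untranslated peaks reached into coding sequence, and after inactivation 30.9%. Past the end of the transcript reached 14.3% and 12.7%. Unpartnered peaks of the inactivated list were more often wholly inside the exon, with 74.5% against 52.7% of the partnered ones, and lay in longer exons, with medians of 2454 against 1882 bp.

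Gene families differed in how many members held a coding-exon peak, and their coding lengths differed too. Families were taken by symbol prefix alone, so that genes of another kind with the same prefix can be among them. Over all coding genes, with a median coding length of 1.11 kb, 12.4% held one in control and 7.71% after inactivation. Of 47 collagen and related genes (Col), of median length 4.46 kb, 20 held one in control (42.6%) and 13 after inactivation (27.7%). Of 36 protocadherin genes (Pcdh), of 2.41 kb, 17 (47.2%) and 12 (33.3%) did. Of 32 myosin and related genes (Myo), of 4.36 kb, 15 (46.9%) and 12 (37.5%) did. Of 24 Adamts protease and related genes, of 3.62 kb, 10 (41.7%) and 5 (20.8%) did. The 374 Zfp zinc finger genes, of 1.69 kb, had 78 (20.9%) and 43 (11.5%), and the 370 Slc transporters, of 1.64 kb, had 45 (12.2%) and 33 (8.92%). The 4 Notch receptor genes had 3 and 4. The 16 genes with the prefix Lam, laminins among them, of 4.79 kb, had 3 (18.8%) and 2 (12.5%). The 13 mucin and related genes (Muc) had 5 and 4. Of 99 keratin and related genes (Krt) 8 and 4 did, which was below the share of all genes. In 3' untranslated exons, Slc genes held a peak in 34 of 370 in control (9.19%) and 35 after inactivation (9.46%), against 5.28% and 3.73% of all genes. The lengths of their 3' untranslated exons were not compared with those of all genes, so the part of length in these shares was not tested.

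Most genes of the intestinal lists held no coding-exon peak, and the shares are read against the 12.4% and 7.71% of all coding genes. Coding-exon peaks lay in 7 of 15 intestinal transcription factor genes in control (46.7%) and 2 after inactivation (13.3%), and in 6 (30%) and 3 (15%) of 20 enterocyte genes. They lay in 3 (23.1%) and 2 (15.4%) of 13 crypt stem genes, and in 3 (18.8%) and 1 (6.25%) of 16 secretory and tuft genes. Of 20 junction and keratin genes 3 (15%) and 4 (20%) held one, of 20 Polycomb and TFIID genes 3 (15%) and 1 (5%), and of 19 genes of other cell types 7 (36.8%) and 3 (15.8%). The lists are small and their shares were not tested. Coding exons of Klf5, a crypt transcription factor, were called in both lists with folds of 2.31 and 2.59, and those of Foxa1 with 1.79 and 1.88. The other 5 genes, Gata4, Gata5, Gata6, Hnf4a and Foxa3, which encode GATA, HNF4 and FOXA factors, had coding-exon peaks in control alone. Of all genes with coding-exon peaks in control, only 36.0% also held one after inactivation. Peaks in control alone were thus the common case and do not set these genes apart. Their folds were 2.05 and 2.26 in Gata4, 1.79 in Gata5, 1.75 and 2.21 in Gata6, 2.18 in Hnf4a and 1.84 in Foxa3. These peaks lay between percentile 4.11, in Gata6, and percentile 77.7, in Gata4. None of the exonic peaks of the transcription factor genes was in the top 10% of its list by fold.

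The enterocyte genes with exonic peaks in both lists were Vil1 and Espn, which encode structural proteins of the brush border. The last exon of Vil1, the villin gene, carried a 3' untranslated peak at chr1:74481216-74482607 in control, with a fold of 2.67 at percentile 91.8. It was called after inactivation with a fold of 3.01 at percentile 76.5. Exon 4 of Espn, the espin gene, had 2.23 at percentile 75.5 and 2.81 at percentile 69.7. The last exon of Apoa1, an apolipoprotein, was called as a coding-exon peak after inactivation with 3.05 at percentile 77.6, 1122 bp from a start site, and its control partner had its midpoint elsewhere. The last coding exon of Notch1 had 1.87 in control and 2.33 after inactivation. In all, 3 coding exons of Fcgbp, a mucus protein of goblet cells, were called in control alone with folds of 2.01 to 2.21, and another one after inactivation, in a stretch with a copy of 90% identity.

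Base composition followed the class of exon. The median GC content was 57.7% in coding-exon, 55.1% in 3' untranslated and 52.5% in intronic peaks of the control list, a difference of 5.22 points between coding exons and introns. After inactivation the medians were 57.6%, 54.2% and 51.1%. Partnered coding-exon peaks had 58.2% in control and 58.8% after inactivation, and unpartnered ones 57.4% and 55.6%. Median CpG counts per 100 bp were 2.61 in control coding-exon peaks, 1.53 in 3' untranslated and 1.26 in intronic ones. Base composition can affect both amplification and mapping, and its part in the sharing was not tested.

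AP-1 letters were scarcer in exonic than in intronic peaks. In partnered control peaks they stood in 4.61% (3.52 to 5.91) of coding-exon, 6.05% (4.06 to 8.62) of 3' untranslated and 10.9% (10.3 to 11.6) of intronic windows of 300 bp. The same letters in reversed order, ACTCAGT and ACTGAGT, stood in 4.13%, 5.62% and 6.24%. The exonic minus intronic difference in AP-1 letters was −5.95 points, with an interval of 1.22 points on either side. In coding exons the AP-1 letters were near the level of their reversed form, whereas in introns they exceeded it. After inactivation the partnered shares were 4.64%, 6.06% and 12.0%, against 4.40%, 4.24% and 6.30% for the reversed letters. Unpartnered coding-exon windows held AP-1 letters in 3.68% of cases in control and 4.97% after inactivation.

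CTCF letters were rare in all classes and their order reversed was nearly absent. They stood in 1.67% (1.04 to 2.54) of partnered coding-exon, 2.38% (1.19 to 4.21) of 3' untranslated and 1.69% of intronic windows in control. In unpartnered control windows they stood in 0.388%, 0.526% and 0.492%. After inactivation the partnered shares were 1.76%, 3.43% (2.01 to 5.44) and 2.34%, and the unpartnered ones 2.86% (1.73 to 4.43), 4.25% (2.40 to 6.91) and 2.0%. The reversed order stood in 2 of 3322 control coding-exon windows. It always opens with CG, which the CTCF pattern does not require, so its rarity is no background for the CTCF letters. The HNF4 letters CAAAGTCCA stood in 0.602% of coding-exon and 0.654% of 3' untranslated windows in control, against 0.831% of intronic ones, and in 1.10%, 1.30% and 1.69% after inactivation. GATA letters (AGATAA or AGATAG, and both with T as the opening letter) stood in 20.1% of coding-exon and 27.0% of 3' untranslated windows in control, against 34.2% of intronic ones. A match is a description of letters and does not show binding.

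At the limit of 1 kb, the nearest member in control lay 1001 bp from a start site, in exon 10 of Ccdc157, with a fold of 1.76. The nearest excluded exonic peak lay at 1000 bp, in exon 7 of Pipox, with a fold of 1.90. After inactivation they were in BC007180 at 1003 bp, with a fold of 2.22, and in BC006779 at 1000 bp, with a fold of 1.92.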

How the data were processed

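ATAC-seq peak lists of 2 libraries, 1 per genotype, were grouped by the genotype of the labels. Per the labels and the study's methods, the authors used bcl2fastq 2.17.1.14, mapped reads to mm9 with Bowtie 1.0.0 and called broad peaks with MACS2 2.1.1 in each library separately, so lists depend on depth. The deposited score, a whole number per peak, was not used for any result. The deposited fold is a ratio to the background of the same library, and the deposited −log10 p and −log10 q are averages over a peak.

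Coordinates were made 1-based. The GENCODE annotation of NCBIM37 was used. The longest transcript had the largest summed exon length, distance to a start site of any of 95495 transcripts was measured from the peak's edges, and where a midpoint met several genes (92 control and 56 inactivated peaks) coding exons took precedence. A percentile is the rank of fold among all peaks of a list. Relative depth came from the background level that gives both fold and Poisson p with reads extended to 200 bp (5th percentile among the 10% of peaks with the least width). Copies were sought with minimap2 2.31. Other values came from Python 3.11.15, numpy 2.4.6, pandas 2.3.3, scipy 1.17.1 and matplotlib 3.10.9. Intervals of shares are exact (Clopper-Pearson), and the interval of a difference combines those of both shares as if they were independent. Overlap, placement and background level were tested on simulated data. No p-value was computed.

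Members, gene lists and motifs were chosen with earlier results of these data known. Named genes were, per class and list, the 5 partnered and 5 unpartnered peaks of highest fold, the 5 genes with most peaks, the 3 best pairs overlapping by 50% of both with the largest rank difference each way, listed genes in the top 10% by fold, and the peaks nearest to 1 kb, of which the text gives a part. Listed genes outside the top 10%, named above for their values in both lists, were picked after these were seen. Alternatives changed the q threshold, start site distance, transcript, placement, overlap, width and motif window.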

Additional observations from a re-analysis of the deposited data

How the results depend on the processing

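No paired analysis was possible because each genotype had 1 library. Of 60 values under alternatives, over 12 results, 29 stayed within the counting interval or, for counts, within 1.5 times the main value. Start site distances of 2 kb or from the midpoint, any coding transcript, placement by 50% of the bases and a gap of 500 bp moved none of the results they were run for. At a −log10 q of at least 2, control minus inactivated peaks were 487 in coding exons and 38 in 3' untranslated exons, and at 5 they were −117 and −88. With equal numbers of peaks, chosen after the data had been seen, they were 635 and 25. The partnered share, inactivated minus control, was 17.3 points in coding exons and 4.74 points in 3' untranslated exons at 2, −30.7 and −65.8 points at 5, 13.3 and 9.38 points with 50% overlap, 34.5 and 28.9 points at 300 to 600 bp, and 13.7 and 5.04 points with equal numbers. Median widths differed by 100.5 bp in coding exons at 2 and 279.5 bp at 5, and by 191 bp in 3' untranslated exons at 2. In control, coding exons minus 3' untranslated exons was −6.07 points at 2 and −32.0 points at 5, and exonic minus intronic was −11.3 points at 2, −16.3 at 5, −1.85 with 50% overlap and −4.18 at 300 to 600 bp. After inactivation exonic minus intronic was 6.44 points at 2, −0.601 at 5, 4.07 with 50% overlap and 11.6 with equal numbers. GC content differed by 6 points over 300 bp, and AP-1 shares by −8.27 points in 500 bp. At a −log10 q of 5, 69 coding-exon and 35 3' untranslated control peaks remained, and the causes were not tested. Peak lists carry no reads, so a peak missing from a list and a weaker peak cannot be told apart, and the inactivated library had the lower background level.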
